A study of Mus musculus with 9 samples.

Results

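The difference between the Nec-1 effect in 4-OHT organoids and the Nec-1 effect in EtOH organoids was measured for 12702 of the 54838 genes in the deposited tables, over 7 of the 9 samples of the series. For each gene, the EtOH arm gave the mean of EtOH Nec-1 minus the mean of EtOH DMSO, and the 4-OHT arm gave 4-OHT Nec-1 minus the mean of 4-OHT DMSO, both as log2(FPKM + 1). FPKM is the number of fragments scaled by transcript length and by the mapped fragments of the library, and the added 1 shrinks the differences of genes with values near or below 1. The EtOH arm was then subtracted from the 4-OHT arm. A negative value of this interaction therefore marks a gene whose Nec-1 difference was lower in 4-OHT organoids, and a value near 0 marks a gene with similar differences in both arms. A gene entered when at least 2 of the 7 libraries reached 1 FPKM. The 4-OHT Nec-1 group had 1 library, so a gene that reached 1 FPKM only there could not enter. A gene that reached it only in both libraries of another group could, so the filter did not treat both directions of the interaction alike.

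Male mice of 2 to 4 months with the genotype Vil-CreERT2;Mettl3 fl/fl gave the small intestinal crypts from which the organoids were grown. All groups carried the floxed Mettl3 alleles and the Cre transgene, which the villin promoter drives in epithelial cells and which 4-OHT activates. Treatment lasted 2 days with 500 nM 4-OHT or its solvent EtOH, and 5 days with Nec-1 or its solvent DMSO, with Nec-1 at 5 µM in a figure legend and 10 µM in the methods of the study. There were 2 libraries of each group except 4-OHT Nec-1, which had 1. No group received 4-OHT without Cre, so effects of 4-OHT itself and of the deletion cannot be told apart. The labels do not say whether the libraries of a group came from separate cultures or animals, so the p-values measure only the spread between these libraries, which may be technical.

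RIPK1 is a kinase that relays signals from TNF receptors and from nucleic acid sensors to inflammation, apoptosis or necroptosis, and Nec-1 (necrostatin-1) blocks its kinase activity. METTL3 is the catalytic subunit of the complex that writes N6-methyladenosine (m6A) on mRNA. Interferon-stimulated genes are the largely antiviral genes that are switched on after interferon binds its receptors. Intestinal epithelium also answers foreign small molecules through the receptors AhR, CAR and PXR, whose targets are cytochromes P450, glutathione transferases, glucuronosyltransferases and transporters. The comparison asks which Nec-1 effects were shared by both arms and which differed between them.

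The labels were first checked with Mettl3, the target of the deletion, whose FPKM was 2.70 and 2.71 in the EtOH DMSO libraries, 2.41 and 2.47 in those with EtOH Nec-1, 3.72 and 4.14 with 4-OHT DMSO and 3.36 with 4-OHT Nec-1. The 3 libraries labelled 4-OHT were thus higher, not lower. These values are of the whole gene and do not show a deleted exon, so each direction given here rests on the labels. The Mettl3 interaction was -0.07 (95% interval -0.45 to 0.32). Epithelial markers were high in every library, with Epcam, an epithelial adhesion molecule, between 431 and 609 FPKM. Of 17 immune cell markers 2 entered, Lyz2 and Itgam, and the whole list summed to between 1.46 and 4.89 FPKM, highest in 4-OHT Nec-1 with 4.89 and in EtOH Nec-1 with 4.61 and 4.45, and the part of such cells in the results was not tested. None of 15 stromal markers entered (0), with sums of 0.475 to 1.03 FPKM. Judged by the steps between the lowest FPKM, the other libraries had 0.851 to 1.03 times the depth of the first EtOH DMSO library, while absolute depth is unknown.

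The promoters of 3 genes are shown, because these genes stand for the patterns found: Isg15 for a Nec-1 difference in the 4-OHT arm, Cyp1a1 for a rise in both arms and Mid1ip1 for opposite differences. Each runs from 250 bases before to 50 bases after the transcription start in RefSeq, build GRCm38.p6, and is written 5′ to 3′ on the strand of the gene. Isg15 lies on the minus strand at chr4:156200769-156201068, Cyp1a1 on the plus strand at chr9:57697363-57697662, and Mid1ip1 on the plus strand at chrX:10717115-10717414. Capitals in Isg15 mark the core of the interferon-stimulated response element (ISRE), searched as GAAA, any 2 bases and GAAA, with 3 overlapping matches that begin 78, 72 and 66 bases before the start. Capitals in Cyp1a1 mark GCGTG, the core that AhR binds, with 1 match 54 bases before the start. Mid1ip1 held neither run of letters.
Isg15: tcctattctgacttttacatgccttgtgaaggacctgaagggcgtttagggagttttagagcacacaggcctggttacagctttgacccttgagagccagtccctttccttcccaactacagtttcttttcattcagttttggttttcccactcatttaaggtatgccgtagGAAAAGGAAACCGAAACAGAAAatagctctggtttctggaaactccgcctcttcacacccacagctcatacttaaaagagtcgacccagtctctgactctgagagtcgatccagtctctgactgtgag
Cyp1a1: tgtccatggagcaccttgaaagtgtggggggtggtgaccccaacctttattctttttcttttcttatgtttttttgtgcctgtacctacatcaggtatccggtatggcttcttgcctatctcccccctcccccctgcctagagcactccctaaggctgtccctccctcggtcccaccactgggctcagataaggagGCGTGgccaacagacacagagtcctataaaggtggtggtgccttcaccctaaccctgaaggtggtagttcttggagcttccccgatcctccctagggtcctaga
Mid1ip1: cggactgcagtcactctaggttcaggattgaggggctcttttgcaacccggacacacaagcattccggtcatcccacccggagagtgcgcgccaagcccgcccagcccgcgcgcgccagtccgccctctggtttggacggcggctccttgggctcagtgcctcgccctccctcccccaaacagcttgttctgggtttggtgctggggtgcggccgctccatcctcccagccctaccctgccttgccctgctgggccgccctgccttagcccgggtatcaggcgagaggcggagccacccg

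The ISRE core, searched on both strands, stood in 24 of the 46 interferon-stimulated genes with a promoter (52.2%) and in 5 of 20 MHC class I genes (25%), against 324 of the 8784 tested genes with a promoter (3.69%) and 1079 of all 27025 promoters (3.99%). The AhR core is short and stood in 4996 of the 8784 tested genes (56.9%) and 9500 of all promoters (35.2%). It stood in 9 of 26 CAR and PXR targets (34.6%) and in 2 of 4 AhR targets. A match is a run of letters in this window and not a measured binding site.

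Genes of drug and foreign-compound metabolism were higher with Nec-1 in both arms, led by Cyp1a1, Cyp3a25, Cyp2c55 and Cyp3a11. Interferon-stimulated genes were lower with Nec-1 in the 4-OHT arm, with a median difference of -1.88 log2 units over 62 genes, and had a median of -0.06 in the EtOH arm, where they were low without Nec-1. Of the 62, 26 reached 1 FPKM in fewer than 2 EtOH libraries and so entered through the 4-OHT libraries. Over the 35 with at least 1 FPKM in both EtOH DMSO libraries, the medians were -1.22 in the 4-OHT arm and -0.15 in the EtOH arm. Ifitm3, Bst2 and Oas2 were the interferon-stimulated genes whose interaction passed the test, and Oas2 was among those that entered through the 4-OHT libraries. Mid1ip1, a regulator of fatty acid synthesis, rose with Nec-1 in EtOH organoids and was lower with it in 4-OHT organoids.

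**Figure D1:**
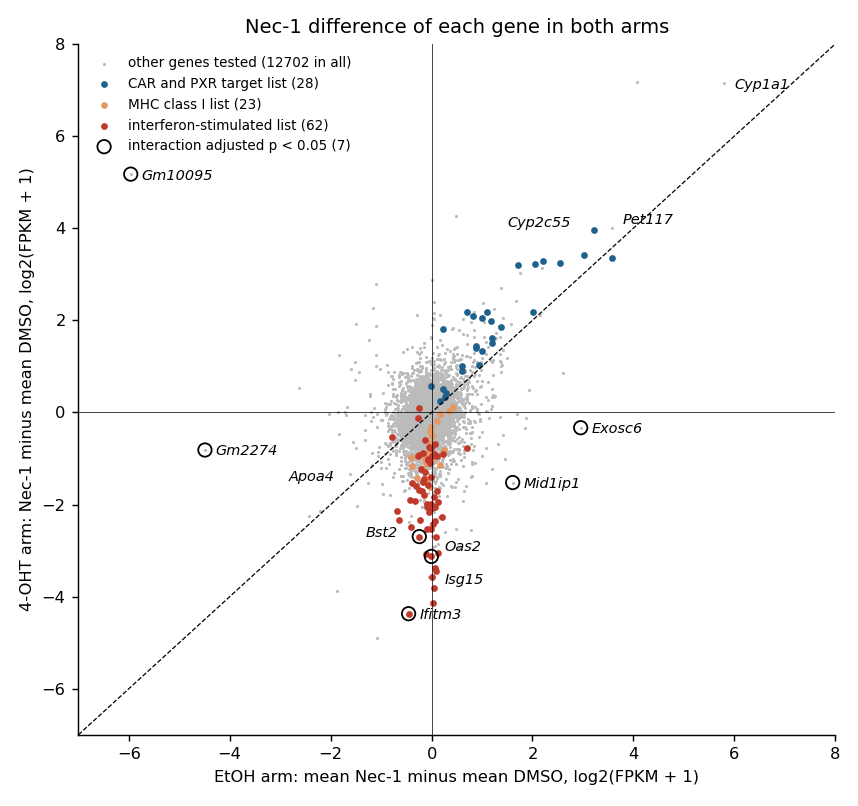
Nec-1 minus DMSO in the EtOH arm (horizontal axis) and in the 4-OHT arm (vertical axis), both as differences of log2(FPKM + 1), with 1 point for each of the 12702 genes and a dashed line where both arms are equal. Blue, orange and red points are the CAR and PXR, MHC class I and interferon-stimulated lists, and circles mark the 7 genes whose interaction passed an adjusted p of 0.05. Red points run down along the vertical axis, while blue points lie above 0 in the 4-OHT arm and, but for 1, in the EtOH arm.

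By limma with Benjamini-Hochberg adjustment, the interaction passed an adjusted p of 0.05 for 7 of 12702 genes (0.0551%), 2 higher (0.0157%) and 5 lower (0.0394%) in the 4-OHT arm. The spread came from the 3 groups with 2 libraries (3 residual degrees of freedom), and the lone 4-OHT Nec-1 library was assumed to vary like them. The smallest interaction called was 2.45 log2 units in size, and the median 95% interval of a gene reached 0.506 to either side, so smaller differences were mostly not detectable. At an unadjusted p below 0.05 there were 1059 genes (8.34%), 536 higher (4.22%) and 523 lower (4.12%). The directions of the calls depended on the filter too, which kept out genes that reached 1 FPKM in 4-OHT Nec-1 alone. The count depended on single libraries. With 1 of the 4-OHT DMSO libraries left out, the spread came from the EtOH groups alone, so those counts rest on another estimate of spread. When the first 4-OHT DMSO library was left out 337 genes were called, and 40 when the second was, both times with all 7 among them. With 1 EtOH library left out at a time there were 1 to 4.

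A description without a test took 1 library of each group in all 8 possible pairings. The interaction was at least 1 log2 unit in the same direction in all 8 for 38 genes higher (0.299%) and 97 lower (0.764%) in the 4-OHT arm. Of the 97 lower genes, 41 were on the interferon-stimulated list, which held 62 of the 12702 genes tested. Of these 41, 25 were under 1 FPKM in an EtOH DMSO library, where a fall by 1 log2 unit in the EtOH arm was impossible. The other 16 had at least 1 FPKM in both EtOH DMSO libraries. Of the 38 higher genes, 4 were CAR and PXR targets and 2 were Reg lectins. Gene models, microRNA and small nucleolar RNA names made up 19 of the 97 and 14 of the 38. Across all genes tested, the interaction had a median of 0.02 and ran from -0.68 to 0.57 between the 5th and 95th percentiles.

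Each arm moved few genes by a full log2 unit. In the EtOH arm 44 genes were higher (0.346%) and 18 lower (0.142%), with both Nec-1 libraries at least 1 log2 unit from both DMSO libraries. In the 4-OHT arm, where 1 Nec-1 library was set against 2, 96 genes were higher (0.756%) and 146 lower (1.15%). Both arms were higher for 25 genes (0.197%) and lower for 1 (0.00787%). A difference in 1 arm alone, together with an interaction past the test, was found for Ifitm3, Oas2 and Bst2 in the 4-OHT arm and for Gm2274 and Exosc6 in the EtOH arm. Oas2 reached 1 FPKM in 4-OHT DMSO alone and was too low in the EtOH arm to fall by 1 log2 unit. Exosc6 reached 1 FPKM in EtOH Nec-1 alone. Mid1ip1 and Gm10095 moved in opposite directions. For 211 genes that moved in the 4-OHT arm and 32 that moved in the EtOH arm, the interaction was not called, so these are not shown to differ between the arms. The Nec-1 differences of the arms, which share no library, correlated across the 12702 genes with Pearson's r of 0.289 and Spearman's rho of 0.231 (genes are not independent replicates).

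Ifitm3 encodes a membrane protein that restricts the entry of viruses and lies at chr7:141009590-141010744. Its FPKM was 11.3 and 12.9 in the EtOH DMSO libraries, 8.13 and 8.96 in those with EtOH Nec-1, 254 and 333 with 4-OHT DMSO and 13.1 with 4-OHT Nec-1. The 4-OHT DMSO libraries stood far above the other 5, and 4-OHT Nec-1 lay just above both EtOH DMSO libraries. The Nec-1 difference was -0.46 in the EtOH arm and -4.37 in the 4-OHT arm (-4.18 and -4.56 against each DMSO library), and the interaction was -3.91 (SE 0.236, limma adjusted p = 0.0215).

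Bst2, also called tetherin, holds budding viruses at the cell surface and lies at chr8:71534255-71537472. Its FPKM was 18.5 and 19.5 in the EtOH DMSO libraries, 16.4 and 15.4 in those with EtOH Nec-1, 243 and 282 with 4-OHT DMSO and 39.6 with 4-OHT Nec-1. Here the 4-OHT Nec-1 library remained above all 4 EtOH libraries. The differences were -0.24 in the EtOH arm and -2.70 in the 4-OHT arm, with an interaction of -2.45 (SE 0.159, limma adjusted p = 0.0249).

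Oas2, an enzyme that makes 2′-5′ oligoadenylates on double-stranded RNA, lies at chr5:120730333-120749886. Its FPKM was 0.0226 and 0.0219 in the EtOH DMSO libraries, 0.0132 and 0.0249 in those with EtOH Nec-1, 12.7 and 16.2 with 4-OHT DMSO and 0.758 with 4-OHT Nec-1. The EtOH libraries were so low that no fall could have been seen in that arm. The 4-OHT arm difference was -3.13 and the interaction -3.12 (SE 0.230, limma adjusted p = 0.0417). Oas genes are close paralogs, and reads may be shared between them.

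Isg15, the ubiquitin-like modifier whose promoter is shown, spans chr4:156199424-156200818 and overlaps Gm46878. Its FPKM was 1.15 and 0.578 in the EtOH DMSO libraries, 0.557 and 1.33 in those with EtOH Nec-1, 331 and 469 with 4-OHT DMSO and 27.3 with 4-OHT Nec-1. Both 4-OHT DMSO libraries stood far above the 4-OHT Nec-1 library, and the EtOH groups overlapped. The interaction of -3.85 (95% interval -4.95 to -2.75) did not pass the adjusted threshold (limma adjusted p = 0.0825). The library preparation is not described as keeping strand, so reads of overlapping genes cannot be told apart.

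Of 72 interferon-stimulated genes listed, 62 entered. Their median Nec-1 difference was -0.06 in the EtOH arm and -1.88 in the 4-OHT arm, and their median interaction was -1.63, beside -0.09, -0.08 and 0.02 for all genes tested. Ifitm3, Bst2 and Oas2 were called lower. An unadjusted p below 0.05 was reached by 54, all of them lower, against 4.12% of all genes tested. In all 8 pairings 58 were lower, against 18.9% of all genes. In the 4-OHT arm 43 members lay at least 1 log2 unit below both DMSO libraries, against 1.15% of all genes tested. In the EtOH arm 0 did, against 0.142%, but for 27 of the 62 this was fixed in advance. These 27 were under 1 FPKM in an EtOH DMSO library, from which log2(FPKM + 1) cannot fall by 1. Of the 43, 25 were among these 27. Slfn4, of the Schlafen family, had the lowest interaction of the list with -4.17, Usp18, which removes ISG15 from proteins and overlaps Gm44148, had -3.16, and Zbp1 had -2.44, none of them called (limma adjusted p = 0.0638 for Usp18 and for Zbp1).

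The list was low in EtOH organoids with or without Nec-1. Its FPKM summed to 674 and 733 in the EtOH DMSO libraries, 599 and 645 in those with EtOH Nec-1, 3079 and 3951 with 4-OHT DMSO and 1144 with 4-OHT Nec-1. Both 4-OHT DMSO libraries lay above both EtOH DMSO libraries for 61 of the 62 members, against 40.7% of all genes tested. The 4-OHT Nec-1 library lay below both 4-OHT DMSO libraries for 61, against 49.3%, and above both EtOH DMSO libraries for 59, against 41.3%. The interaction and the difference between 4-OHT DMSO and EtOH DMSO share these 4 libraries, so a high 4-OHT DMSO value alone makes the interaction more negative. Among the 35 members with at least 1 FPKM in both EtOH DMSO libraries, the median was -0.15 in the EtOH arm, -1.22 in the 4-OHT arm and -1.14 for the interaction. In all 8 pairings 31 of them were lower, against 18.9% of all genes tested. The other 27 were under 1 FPKM in an EtOH DMSO library. Of these, 26 reached 1 FPKM in fewer than 2 EtOH libraries and so entered through the 4-OHT libraries. A small EtOH difference and a negative interaction largely follow from that choice. The values over all 62 members include them.

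Not every interferon-stimulated gene followed. The interaction was above 0 in all 8 pairings for Ifitm2, Ifi27 and Irf9, which were picked out after their values were seen. Ifitm2, a paralog of Ifitm3, had an FPKM of 260 and 260 in the EtOH DMSO libraries, 212 and 219 in those with EtOH Nec-1, 155 and 163 with 4-OHT DMSO and 147 with 4-OHT Nec-1. Irf9, a transcription factor of the interferon response, had 1.66 and 1.85, 1.12 and 1.52, 7.72 and 8.15, and 8.56 in the same order, so that it stayed high with Nec-1 in 4-OHT organoids. Its interaction was 0.35, while that of Irf7, a transcription factor that induces interferon genes, was -2.10.

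Sensors, receptors and kinases upstream of these genes differed less. For 27 interferon receptors, signalling factors and sensors, some of them also interferon-stimulated, the medians were -0.09 in the EtOH arm, -0.25 in the 4-OHT arm and -0.11 for the interaction. At an unadjusted p below 0.05, 9 were lower, against 4.12% of all genes tested, and 0 were called. Ddx58, the sensor RIG-I, carries an older symbol in the files and was matched after its values were seen. Its FPKM was 1.52 and 1.71 in the EtOH DMSO libraries, 1.70 and 1.98 in those with EtOH Nec-1, 8.73 and 9.62 with 4-OHT DMSO and 3.49 with 4-OHT Nec-1, with an interaction of -1.30 (limma adjusted p = 0.103). The receptor chain Ifnar1 had an interaction of 0.08 and the kinase Jak1 of 0.01.

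MHC class I genes, which load peptides for display to T cells, were lower with Nec-1 in the 4-OHT arm as a group. Over 23 members the medians were -0.01 in the EtOH arm, -0.88 in the 4-OHT arm and -0.79 for the interaction. None was called (0). At an unadjusted p below 0.05, 17 were lower, and in all 8 pairings 22 were, against 4.12% and 18.9% of all genes tested. B2m, the light chain of every class I molecule, had an FPKM of 377 and 327 in the EtOH DMSO libraries, 338 and 338 in those with EtOH Nec-1, 572 and 669 with 4-OHT DMSO and 317 with 4-OHT Nec-1. The last value lay below all 6 others. The largest interactions were -1.60 for Psmb8, a subunit of the immunoproteasome, and -1.36 for the peptide transporter Tap1. Both 4-OHT DMSO libraries lay above both EtOH DMSO libraries for 20 of the 23 members, against 40.7% of all genes, which alone makes the interaction more negative. For 11 of the 23 members the 4-OHT Nec-1 library lay below both EtOH DMSO libraries and for 9 above both, shares near the 43% and 41.3% of all genes tested. The 5 MHC class II genes had a median interaction of 0.14, with 0.17 for H2-Ab1 and -0.81 for Cd74, and H2-Ab1 turned to -0.08 without the first 4-OHT DMSO library.

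**Figure D2:**
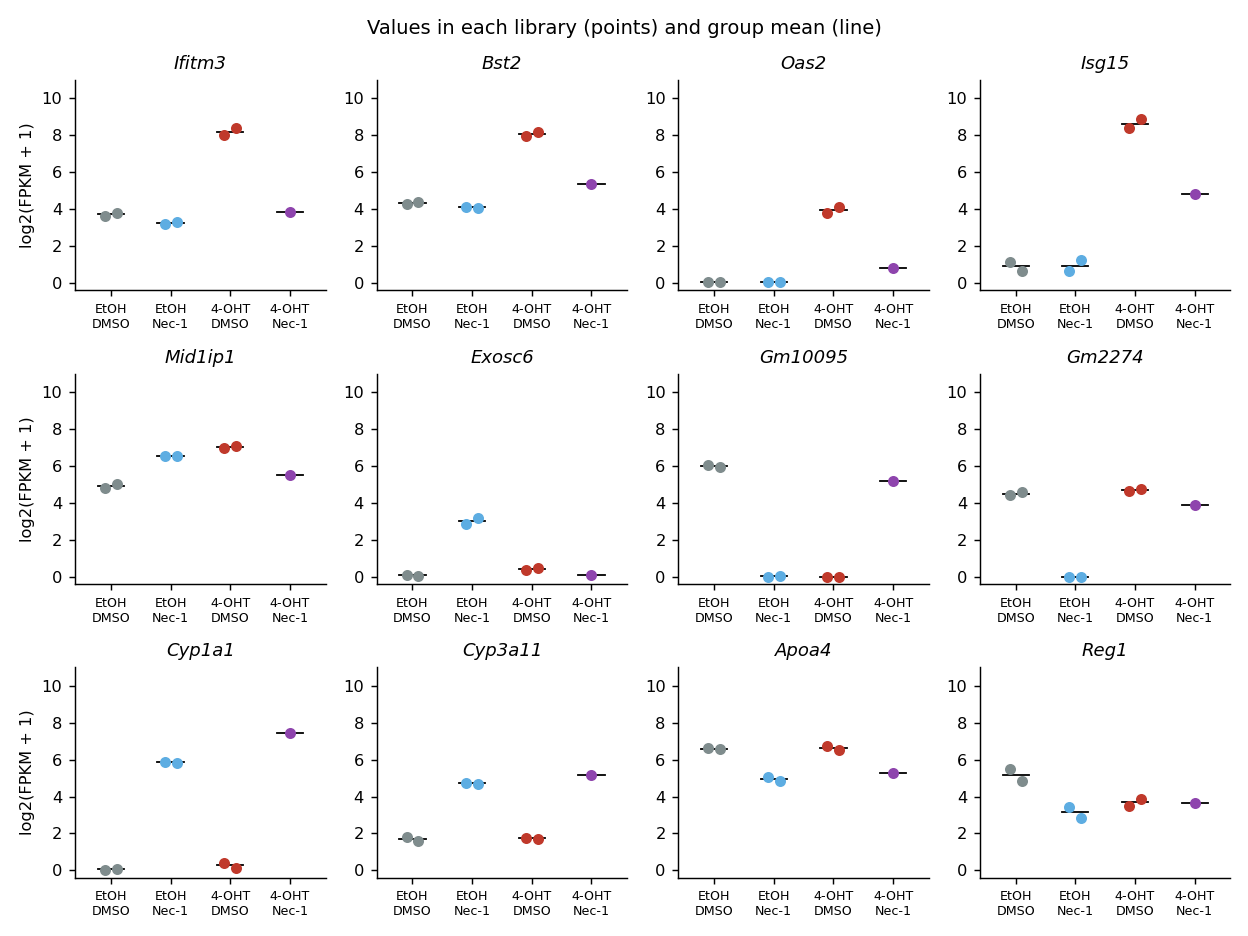
log2(FPKM + 1) in each library for 12 genes, with 1 point per library, a line at the group mean and the same vertical axis in every panel. The interferon-stimulated genes in the top row are high in 4-OHT DMSO, Cyp1a1 and Cyp3a11 are high in both Nec-1 groups, and Mid1ip1 is higher in EtOH Nec-1 than in EtOH DMSO and lower in 4-OHT Nec-1 than in 4-OHT DMSO.

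Mid1ip1 promotes the assembly of acetyl-CoA carboxylase, the first committed enzyme of fatty acid synthesis, and spans chrX:10717365-10719702. Its FPKM was 27.1 and 31.4 in the EtOH DMSO libraries, 90.5 and 91.2 in those with EtOH Nec-1, 122 and 134 with 4-OHT DMSO and 43.9 with 4-OHT Nec-1. The 4 groups did not overlap, and the order of Nec-1 and DMSO was reversed between the arms. The gene rose by 1.61 in the EtOH arm (limma adjusted p = 0.00788) and differed by -1.52 in the 4-OHT arm, with an interaction of -3.13 (95% interval -3.53 to -2.73, limma adjusted p = 0.0117). It was the 1 gene called among 17 genes of lipogenesis. The list had a median interaction of 0.14. At an unadjusted p below 0.05, 2 were higher and 1 lower, against 4.22% and 4.12% of all genes tested.

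Exosc6, a subunit of the RNA exosome, the complex that degrades RNA from its 3′ end, spans chr8:111056339-111057664. Its FPKM was 0.0473 and 0.0389 in the EtOH DMSO libraries, 6.15 and 8.15 in those with EtOH Nec-1, 0.299 and 0.400 with 4-OHT DMSO and 0.0711 with 4-OHT Nec-1. Only the EtOH Nec-1 libraries reached 1 FPKM. The gene rose by 2.95 in the EtOH arm (limma adjusted p = 0.00568), and its interaction was -3.29 (SE 0.251, limma adjusted p = 0.0431).

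The interactions called higher were those of 2 gene models, which are uncertain. Gm10095, a pseudogene at chr12:86845744-86846203 that overlaps Gm51955, had an FPKM of 64.4 and 60.1 in the EtOH DMSO libraries, 0 and 0.0268 in those with EtOH Nec-1, 0 and 0 with 4-OHT DMSO and 35.1 with 4-OHT Nec-1. It was thus either above 30 FPKM or at or next to 0, and Nec-1 and DMSO changed places between the arms. Its interaction of 11.14 had an adjusted p of 1.82e-05 (limma). Gm2274, a transcribed pseudogene at chr14:26156043-26166186, had 20.4 and 22.7 in EtOH DMSO, 23.6 and 25.5 in 4-OHT DMSO, 13.5 in 4-OHT Nec-1 and was listed at 0 in both EtOH Nec-1 libraries. Its interaction was 3.68 (SE 0.150, limma adjusted p = 0.00507). Whether such values come from the assignment of reads among near-identical or overlapping genes was not tested.

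Leaving out any 1 of the 4 EtOH libraries ended the call of Ifitm3, Bst2, Oas2, Exosc6 and Mid1ip1, with adjusted p of 0.12 to 0.165, 0.139 to 0.2, 0.165 to 0.267, 0.124 to 0.206 and 0.0726 to 0.122 (limma). Leaving out either EtOH DMSO library or the first EtOH Nec-1 library ended that of Gm2274 (0.0686 to 0.0949, limma). Gm10095 was called each time. With either 4-OHT DMSO library left out, the spread came from the EtOH groups alone. Calls made that way are therefore no check on the spread of the 4-OHT values. The directions of all 7 were the same in all 8 pairings.

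CAR and PXR targets made up 11 of the 25 genes higher by at least 1 log2 unit in both arms. Of the rest, 1 was the AhR target Cyp1a1, 1 was Scd1, a fatty acid desaturase of the lipogenesis list, and 5 were gene models. The 7 others were in no list, and Cyb5a, which passes electrons to P450 enzymes, the glutathione transferase Gstm2, the intestinal calcium-binding protein S100g, the intestinal phosphatase Akp3 and skeletal muscle actin Acta1 were among them (named, like Scd1, after their values were seen). Both arms carry Nec-1 against DMSO, so the average of the arms was tested too. It passed an adjusted p of 0.05 for 284 genes (2.24%), 135 higher (1.06%) and 149 lower (1.17%). The 135 held 22 CAR and PXR targets. The 149 held 37 interferon-stimulated genes, 18 of these under 1 FPKM in an EtOH DMSO library. The median of all genes for this average was -0.09, and centring each library on its median moved it to 0.02 and the counts to 188 higher and 88 lower. Upper quartile scaling gave 206 and 89, and rescaling to an equal total (TPM) 113 and 214. With 1 EtOH library left out at a time 31 to 51 genes passed, and with the first or the second 4-OHT DMSO library left out 736 or 447. By limma for the EtOH arm alone, 28 genes passed (0.22%), 22 higher (0.173%) and 6 lower (0.0472%), and 10 of the 22 were CAR and PXR targets. That count was 9 to 14 without an EtOH library and 75 with either 4-OHT DMSO library left out; the 4-OHT libraries enter it through the shared spread.

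Cyp1a1, a cytochrome P450 that AhR induces, spans chr9:57687928-57703824. Its FPKM was 0.0180 and 0.0610 in the EtOH DMSO libraries, 57.4 and 56.0 in those with EtOH Nec-1, 0.322 and 0.103 with 4-OHT DMSO and 170 with 4-OHT Nec-1. The Nec-1 libraries of both arms stood far above every DMSO library, and the 4-OHT Nec-1 library stood above both EtOH Nec-1 libraries. Cyp1a1 rose by 6.47 on average over the arms (limma adjusted p = 3.00e-05), by 5.80 in the EtOH arm and with a difference of 7.14 in the 4-OHT arm. Its interaction of 1.35 did not pass the test (limma adjusted p = 0.103).

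Cyp3a11, the main PXR-responsive P450 of mouse intestine and liver, had an FPKM of 2.55 and 1.99 in the EtOH DMSO libraries, 25.9 and 24.7 in those with EtOH Nec-1, 2.43 and 2.30 with 4-OHT DMSO and 34.8 with 4-OHT Nec-1. Its differences were 3.01 and 3.41, and the 95% interval of the interaction ran from -0.04 to 0.84. Its paralog Cyp3a25 had 4.57 and 5.05, 68.8 and 67.9, 1.32 and 1.29, and 22.6 FPKM in the same order of groups. There the starting level differed between the arms, while the differences of 3.58 and 3.36 were close, with an interaction of -0.22 (95% interval -0.55 to 0.11). Cyp2c55 differed by 3.22 and 3.95 and the CAR target Cyp2b10 by 2.01 and 2.19. Cyp3a and Cyp2c genes have close paralogs, and their reads may be shared. Pet117, an assembly factor of cytochrome c oxidase, went from below 0.005 FPKM in all DMSO libraries to 10.8 and 11.1 with EtOH Nec-1 and 15.1 with 4-OHT Nec-1, and it overlaps Kat14.

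As a group, the 28 CAR and PXR targets differed more with Nec-1 in the 4-OHT arm. Their medians were 1.00 in the EtOH arm, 1.84 in the 4-OHT arm and 0.50 for the interaction. None was called (0), and 14 were higher at an unadjusted p below 0.05, against 4.22% of all genes tested. In all 8 pairings 21 were higher and 1 lower, against 21.7% and 18.9% of all genes. The list summed to 4581 and 4448 FPKM in the EtOH DMSO libraries, 11444 and 11683 in those with EtOH Nec-1, 2521 and 2879 with 4-OHT DMSO and 10589 with 4-OHT Nec-1. The sums of the Nec-1 groups were close, and the 4-OHT arm started lower. Both 4-OHT DMSO libraries lay below both EtOH DMSO libraries for 18 of the 28, against 30.8% of all genes tested, and 4-OHT Nec-1 lay above both 4-OHT DMSO libraries for all 28, against 25.5%.

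The targets with the largest interactions were Ugt1a1, Gstm3, Aldh1a7 and Abcc2, at 1.58, 1.49, 1.48 and 1.27. Gstm3, a glutathione transferase, had an FPKM of 1036 and 1051 in the EtOH DMSO libraries, 3363 and 3467 in those with EtOH Nec-1, 219 and 309 with 4-OHT DMSO and 2393 with 4-OHT Nec-1. Abcc2, an exporter of conjugated compounds, had 26.6 and 33.8, 54.1 and 54.0, 18.1 and 18.5, and 81.7 in the same order. For Gstm3 the 4-OHT Nec-1 value stayed below the EtOH Nec-1 values, and for Abcc2 it lay above them. Ugt1a1, which conjugates bilirubin, shares exons with the other Ugt1a genes, so its reads are uncertain. Ugt1a9, named after its values were seen, had 58.7 and 34.5, 57.1 and 69.5, 0.161 and 0.313, and 22.8 FPKM, an interaction of 3.79 that was not called (limma adjusted p = 0.0708).

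The median interaction was also above that of all genes for related groups. For the 4 AhR targets the median interaction was 0.70, and Nqo1, a quinone reductase that NRF2 also controls, had 0.95, with an FPKM of 176 and 180 in the EtOH DMSO libraries, 322 and 318 in those with EtOH Nec-1, 58.3 and 67.6 with 4-OHT DMSO and 220 with 4-OHT Nec-1. For 15 targets of NRF2, the regulator of antioxidant enzymes, the medians were 0.40 in the EtOH arm, 0.71 in the 4-OHT arm and 0.21 for the interaction, with 3 higher at an unadjusted p below 0.05, 0 called and 8 up by the average of the arms. For 12 carboxylesterases, a group added after the data were seen, they were 0.62, 1.27 and 0.64, with 8 higher at an unadjusted p below 0.05. Among all genes tested, 4.22% were higher at that p. Ces1b, Ces1d, Ces1e and Ces1f were higher by at least 1 log2 unit in all 8 pairings, and none passed the adjusted test (0).

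Apoa4, an apolipoprotein of chylomicrons, was the 1 gene lower by at least 1 log2 unit in both arms. Its FPKM was 96.2 and 92.6 in the EtOH DMSO libraries, 32.2 and 27.9 in those with EtOH Nec-1, 104 and 90.7 with 4-OHT DMSO and 38.0 with 4-OHT Nec-1. All 3 Nec-1 libraries lay below all 4 DMSO libraries. It fell by 1.48 on average over the arms (limma adjusted p = 0.00331), and the interaction was 0.29 (95% interval -0.15 to 0.72). Apoa1 and Apoc3 also fell on average, with limma adjusted p of 0.0139 and 0.0138. The 27 genes of apolipoproteins and dietary fat handling had medians of -0.06, 0.11 and 0.27 for the EtOH arm, the 4-OHT arm and the interaction. At an unadjusted p below 0.05, 6 of the 27 were higher, against 4.22% of all genes tested. Fabp1, a fatty acid carrier of enterocytes, had the largest interaction there with 1.21 (95% interval 0.73 to 1.68), not called (limma adjusted p = 0.147).

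**Figure D3:**
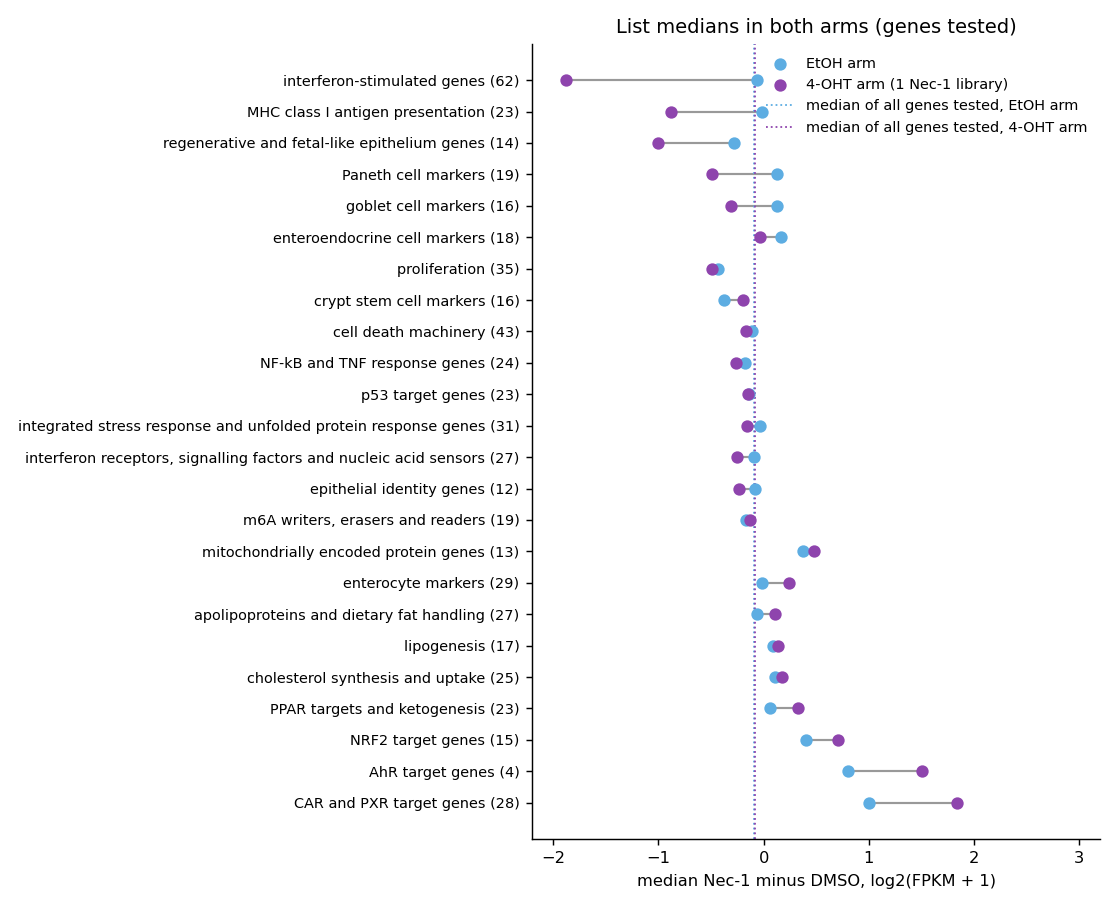
Median Nec-1 difference of each gene list, as log2(FPKM + 1), in the EtOH arm (blue) and in the 4-OHT arm (purple), with the number of genes tested in brackets and dotted lines at the medians of all genes tested. The interferon-stimulated list has the widest gap, from -0.06 to -1.88, and the CAR and PXR list lies to the right in both arms, at 1.00 and 1.84. The interferon-stimulated list includes 26 genes that reached 1 FPKM in fewer than 2 EtOH libraries. Its 35 members with at least 1 FPKM in both EtOH DMSO libraries had medians of -0.15 and -1.22.

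Genes of cell death had medians near those of all genes. For 43 genes of the death machinery the medians were -0.11 in the EtOH arm, -0.17 in the 4-OHT arm and -0.08 for the interaction. In all 8 pairings 6 were higher and 16 lower, against 21.7% and 18.9% of all genes tested. At an unadjusted p below 0.05, 1 was higher and 3 were lower, against 4.22% and 4.12% of all genes tested. Ripk1 had an FPKM of 3.37 and 3.66 in the EtOH DMSO libraries, 3.47 and 4.03 in those with EtOH Nec-1, 8.32 and 8.26 with 4-OHT DMSO and 7.84 with 4-OHT Nec-1. It was higher in all 3 4-OHT libraries, with or without Nec-1, and its interaction was -0.14 (95% interval -0.54 to 0.26). The intervals were -0.60 to 0.15 for Casp8 and -0.65 to 0.25 for Cflar, the caspase-8 inhibitor cFLIP. For Atf3, a stress-induced transcription factor, the FPKM was 5.75 and 6.63 in the EtOH DMSO libraries, 6.83 and 6.00 in those with EtOH Nec-1, 11.4 and 10.8 with 4-OHT DMSO and 9.0 with 4-OHT Nec-1, and the interval was -0.75 to 0.11. These intervals leave room for differences of up to about 0.75 log2 units.

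The 3 lower death genes were Zbp1, Tnfsf10 and Mlkl. Zbp1, a sensor of Z-form nucleic acids that engages RIPK3, had an FPKM of 0.0285 and 0.0689 in the EtOH DMSO libraries, 0.0805 and 0.0616 in those with EtOH Nec-1, 8.09 and 10.1 with 4-OHT DMSO and 0.891 with 4-OHT Nec-1, and is on the interferon-stimulated list too. Tnfsf10, the death ligand TRAIL, had 5.38 and 6.43 in the EtOH DMSO libraries, 3.76 and 3.79 in those with EtOH Nec-1, 3.90 and 4.15 with 4-OHT DMSO and 0.570 with 4-OHT Nec-1. In contrast with Zbp1, it was not raised in 4-OHT DMSO, and its 4-OHT Nec-1 value was the lowest of all 7 libraries. Its interaction was -1.15 (95% interval -1.59 to -0.70, limma adjusted p = 0.145), and it fell by 1.10 on average over the arms (limma adjusted p = 0.00952). Mlkl, the executor of necroptosis, had an interaction of -0.87.

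Response programmes often measured beside cell death had medians near that of all genes. The median interaction was -0.13 for 24 NF-κB and TNF response genes, 0.00 for 23 p53 targets, 0.06 for 31 genes of the integrated stress and unfolded protein responses, -0.01 for 20 immediate early genes and 0.12 for 30 genes of hypoxia and glycolysis. None of their members was called by limma (0). At an unadjusted p below 0.05, 3 NF-κB and TNF genes and 1 p53 target were lower, 1 gene of the stress responses was higher and 6 were lower, 3 of hypoxia and glycolysis were higher and 1 was lower, and no immediate early gene passed (0). Among all genes tested, 4.22% were higher and 4.12% lower at that p. Sdf2l1 and Manf, which help proteins to fold in the endoplasmic reticulum, had the largest interactions of the stress list with -0.73 and -0.63. In all 8 pairings, 1 NF-κB and TNF gene was higher and 9 were lower, against 21.7% and 18.9% of all genes tested. For p53 targets these counts were 0 and 6, for the stress responses 8 and 11. For immediate early genes they were 1 and 3, and for hypoxia and glycolysis 13 and 3. For some members the replicates disagreed. Gapdh, a glycolytic enzyme, had 12.7 and 52.2 FPKM in the 4-OHT DMSO libraries, and its interaction went from -0.85 to 0.13 without the second of them.

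Paneth and goblet cell markers had medians below that of all genes in the 4-OHT arm (-0.08), and none was called (0). For 19 Paneth cell markers the medians were 0.13 in the EtOH arm, -0.50 in the 4-OHT arm and -0.51 for the interaction. At an unadjusted p below 0.05, 8 were lower and 1 higher, against 4.12% and 4.22% of all genes tested. Defa5, an alpha-defensin, had an FPKM of 88.4 and 75.4 in the EtOH DMSO libraries, 84.1 and 82.7 in those with EtOH Nec-1, 399 and 423 with 4-OHT DMSO and 168 with 4-OHT Nec-1, and an interaction of -1.31 (limma adjusted p = 0.0946). Its 4-OHT Nec-1 value remained above all EtOH libraries. Mmp7, the protease that activates defensins, had an interaction of -1.02, and the lysozyme gene Lyz1 had -0.23. For 16 goblet cell markers the medians were 0.13, -0.31 and -0.48, with 6 lower at an unadjusted p below 0.05, against 4.12% of all genes. Bcas1 had the largest with -1.56, while the mucin gene Muc2 had -0.45. Both 4-OHT DMSO libraries lay above both EtOH DMSO libraries for 16 of the 19 Paneth and 14 of the 16 goblet markers, against 40.7% of all genes. A high 4-OHT DMSO value alone makes the interaction more negative. In these bulk libraries, fewer cells of a type and less RNA per cell cannot be told apart, and defensin genes are close copies whose reads may be shared.

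The remaining lineages had medians closer to that of all genes. The 18 enteroendocrine markers had a median interaction of -0.20, the 6 tuft cell markers -0.13, the 16 crypt stem cell markers 0.08 and the 12 epithelial identity genes -0.05. Proliferation genes had medians of -0.43 in the EtOH arm and -0.49 in the 4-OHT arm over 35 members, below those of all genes in both arms, and -0.07 for the interaction, with 0 past an unadjusted p of 0.05. Ascl2, a regulator of crypt stem cells, likewise differed by -1.18 and -1.14. Olfm4, a stem cell marker, differed by -0.40 and -1.56. For 29 enterocyte markers the median interaction was 0.29, and it ranged from 0.147 to 0.316 when 1 library was left out. Both 4-OHT DMSO libraries lay below both EtOH DMSO libraries for 19 of these markers and above for 7, against 30.8% and 40.7% of all genes. Over all 7 libraries, 11 were higher and 2 lower at an unadjusted p below 0.05, against 4.22% and 4.12% of all genes.

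Genes of regenerating and fetal-like epithelium, a programme of injured intestine, had a lower median with Nec-1 in the 4-OHT arm. Over 14 members the medians were -0.28 in the EtOH arm, -1.0 in the 4-OHT arm and -0.72 for the interaction. Both 4-OHT DMSO libraries lay above both EtOH DMSO libraries for all 14, against 40.7% of all genes, which alone makes the interaction more negative. At an unadjusted p below 0.05, 7 were lower, against 4.12% of all genes tested, and 0 were called. Ly6d had 4.12 and 5.28 FPKM in the EtOH DMSO libraries, 3.31 and 4.15 in those with EtOH Nec-1, 16.2 and 18.4 with 4-OHT DMSO and 5.19 with 4-OHT Nec-1. S100a6, a calcium-binding protein named after its values were seen, had 32.6 and 32.2, 33.2 and 31.7, 215 and 193, and 105 in the same order. For Ly6d the 4-OHT Nec-1 value lay within the EtOH DMSO values, and for S100a6 it lay between the arms. The 5 gastric genes had a median interaction of -0.68, with -3.53 for Tff1, whose 4-OHT DMSO values of 6.85 and 80.6 FPKM differed widely.

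**Figure D4:**
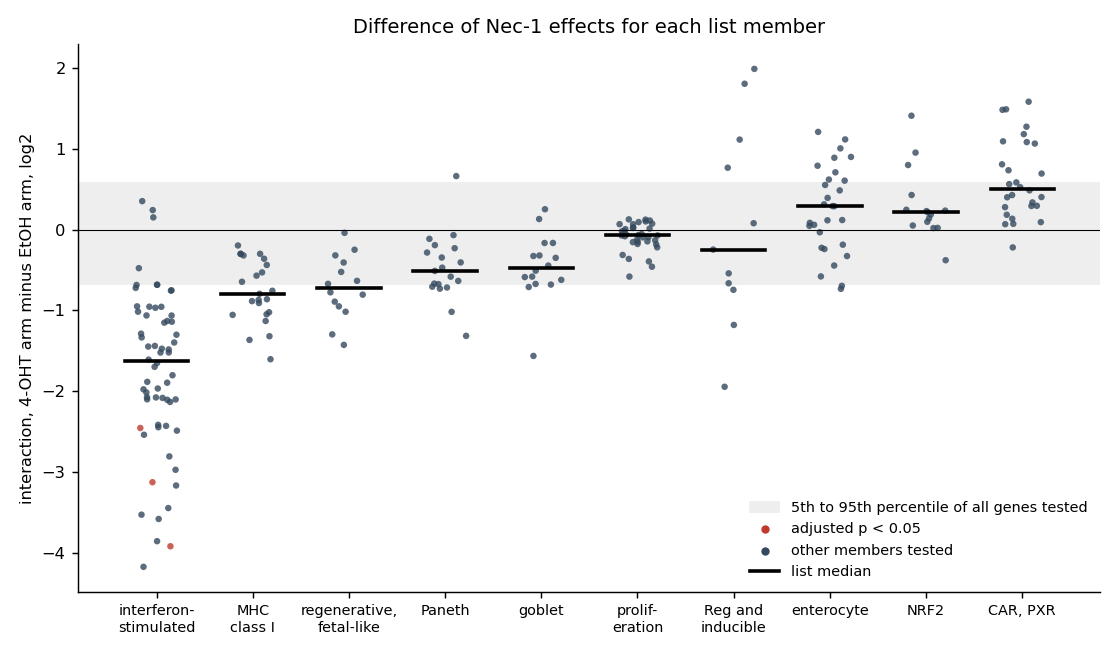
Interaction (4-OHT arm minus EtOH arm, log2 units) of each tested member of 10 gene lists, with a bar at the list median and a grey band from the 5th to the 95th percentile of all genes tested (-0.68 to 0.57). Red points passed an adjusted p of 0.05. The interferon-stimulated list reaches to -4.17, most CAR and PXR targets lie above 0, and the Reg and inducible list holds members on both sides.

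Some Reg lectins had interactions above 0 that came from the EtOH arm, and none of the Reg genes was called (0). Reg1 had an FPKM of 43.3 and 28.1 in the EtOH DMSO libraries, 9.80 and 6.16 in those with EtOH Nec-1, 10.2 and 13.8 with 4-OHT DMSO and 11.5 with 4-OHT Nec-1. Its EtOH DMSO libraries stood above all others, and the 4-OHT groups overlapped. The differences were -2.03 in the EtOH arm and -0.04 in the 4-OHT arm, with an interaction of 1.99 (95% interval 0.83 to 3.15) that was not called (limma adjusted p = 0.291). For Reg3a, Reg3b and Reg3g, which encode secreted antimicrobial lectins, the EtOH arm had -1.68, -1.08 and -0.91, and the interactions were 1.80, 0.76 and 1.11. Reg4 went the opposite way, with 0.64 in the EtOH arm, -0.02 in the 4-OHT arm and an interaction of -0.66 (95% interval -1.08 to -0.25). On the same list of 11, the epithelial oxidase Nox1 had an interaction of -1.94 and the oxidase maturation factor Duoxa2 -1.18, and the median was -0.25.

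Of the metabolic and RNA-modifying groups, PPAR targets had the median interaction farthest from that of all genes. The median interaction was 0.10 for 25 genes of cholesterol synthesis and uptake, of which 1 was lower at an unadjusted p below 0.05, 0.27 for 23 PPAR targets, of which 6 were higher at an unadjusted p below 0.05 and 13 in all 8 pairings, 0.06 for 19 writers, erasers and readers of m6A and 0.11 for 13 mitochondrially encoded protein genes, with 0 called in each list and 0 past the unadjusted p in the last pair of lists. Among all genes tested, 4.22% were higher and 4.12% lower at an unadjusted p below 0.05, and 21.7% were higher in all 8 pairings. The mitochondrially encoded genes were above the median of all genes in both arms, at 0.38 and 0.48. Acaa2, an enzyme of fatty acid oxidation, and Acot2, a mitochondrial thioesterase, had the largest interactions of the PPAR list, at 0.71 and 0.74. Mettl16, another m6A methyltransferase, had -0.50 (95% interval -1.0 to 0.00).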

How the data were processed

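Bulk RNA-seq of 7 libraries was used, and the 2 CUT&Tag samples were not analysed here. The authors deposited 1 FPKM value for each Ensembl gene in each library, and the submitters' processing notes name HISAT2 2.1.0, StringTie 1.3.3b and the build mm10. All columns were mapped to a sample (0 unmapped), and 2 columns of one table repeated other tables to within 5e-06 FPKM. Of 54838 identifiers, 54723 matched a symbol. FPKM summed to 450207 to 498712 per library. Fragment counts are not known, so no counting error can be given.

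Genes that reached 1 FPKM in 2 or more libraries were analysed as log2(FPKM + 1) in R 4.3.3 with limma 3.58.1, using a mean-variance trend, 1 mean per group over all 7 libraries and Benjamini-Hochberg adjustment over 12702 genes (threshold 0.05). A count test had been planned for files of counts and was not used. The difference of the 4-OHT Nec-1 library from 4-OHT DMSO itself has no p-value. The step was tested on simulated data with the same spread in all 7 libraries for each gene. That test cannot check whether the lone 4-OHT Nec-1 library varied like the others. Replicates correlated with Pearson's r of 0.965 to 0.989 across genes. Tables, promoter searches and figures were made with Python 3.11.15, numpy 2.4.6, pandas 2.3.3 and matplotlib 3.10.9. Coordinates and promoters come from RefSeq, GRCm38.p6.

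The gene lists, the classes and the comparison itself were chosen with earlier results of these data known. Genes were named by rule: Mettl3, genes the study names, genes with a called interaction of one sign in all 8 pairings, the largest shared changes, genes of opposite sign, and the largest interactions of each list. Values are printed for most of these, and 1 gene is not reported here. Further list members and genes in no list were named after their values were seen. Alternatives were limma without the trend or with robust estimation, median centring, upper quartile scaling, TPM, pseudocounts of 0.1 and 0.25, other filters, the replicate number as a block, other thresholds and each library left out in turn. The count over all 8 pairings, the split of the interferon-stimulated list by level and the carboxylesterase group were added after seeing the data.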

Additional observations from a re-analysis of the deposited data

Results flagged for a closer look

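A difference between the Nec-1 effects of the arms, tested as the interaction of a limma fit over all 7 libraries, passed an adjusted p of 0.05 for 7 genes. In log2 units it was -3.91 for Ifitm3, -3.29 for Exosc6, -3.13 for Mid1ip1, -3.12 for Oas2 and -2.45 for Bst2, and 3.68 for Gm2274 and 11.14 for Gm10095. All 7 kept their sign in all 8 pairings of libraries. The 4-OHT Nec-1 side of each rests on 1 library. Oas2 reached 1 FPKM in 4-OHT DMSO alone, and Exosc6 in EtOH Nec-1 alone. No group had enough libraries to look for a library standing apart within it.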

How the results depend on the processing

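The interaction was called for 7 genes. The count was 219 with no filter on low values (191 higher, 28 lower), 3 with at least 1 FPKM in all 7 libraries, 247 at an unadjusted p below 0.05 with 1 log2 unit, and 1 to 337 with 1 library left out. With the trend removed or with TPM it was 10, and with robust estimation, median centring, upper quartile scaling or pseudocounts 6 or 7. The replicate number as a block gave 4, where Bst2, Oas2 and Exosc6 had an adjusted p of 0.143 (limma). Same-numbered libraries did not deviate together across genes (r of -0.04, 0.006 and -0.012). The labels do not say whether they were prepared together, and these correlations cannot settle it. The average of the arms was called for 284 genes, for 463 with no filter, 113 with the block, 137 at an unadjusted p with 1 log2 unit, 97 at an adjusted p with 1 log2 unit and 31 to 736 with 1 library left out. The EtOH arm was called for 28, for 43 with upper quartile scaling, 8 with no filter, 90 at an unadjusted p with 1 log2 unit and 9 to 75 with 1 library left out. Of the genes moved in both arms, the 25 higher became 62 at 1.5-fold, and the 1 lower became 4 with TPM, 14 and 8 with pseudocounts of 0.1 and 0.25, 16 at 1.5-fold and 1 to 4 with 1 library left out. The 2 opposite genes became 8 and 5 with these pseudocounts, 1 with 1 FPKM in all 7 libraries, 8 at 1.5-fold and 3 to 6 with 1 library left out. Genes at least 1 log2 unit apart in all 8 pairings, 38 higher and 97 lower, became 60 higher with TPM, 80 higher and 147 lower with a pseudocount of 0.1, 66 higher with 0.25, 19 and 36 with 1 FPKM in all 7 libraries, 131 and 228 at 1.5-fold, and 62 to 155 and 123 to 363 with 1 library left out. Leaving out a library lowers the number of pairings, and the other causes were not tested. The median interaction of the CAR and PXR list, 0.504, was 0.585 with TPM and 0.496 to 0.57 with 1 library left out, that of the AhR list, 0.699, was 0.528 to 0.99, and that of enterocyte markers, 0.289, was 0.147 to 0.316. Pseudocount 0.1 ended the calls of Oas2 (adjusted p 0.139, limma) and Exosc6 (0.0514), and 3 left-out libraries that of Gm2274 (0.0686 to 0.0949). Of 71 genes picked by the naming rule, 5 changed sign somewhere, none of them called over all 7 libraries: Cyp3a25 to 0.213 with a pseudocount of 0.1, and, with 1 library left out, H2-Ab1 between -0.082 and 0.428, Itgam between -0.031 and 0.512, Gapdh between -1.835 (limma adjusted p = 0.0186) and 0.128 and Lyz2 between -0.038 and 0.431, and Lyz2 to -0.002 with the block. The other values of these genes kept direction and call in 654 cases, lost the call in 28 and gained it in 21.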

Other observations

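Genes outside every list that were at least 1 log2 unit lower in the 4-OHT arm in all 8 pairings included Lypd8, Muc3 and Ly6e, chosen after their values were seen. Lypd8, which keeps flagellated bacteria away from the epithelium, had an FPKM of 561 and 536 in the EtOH DMSO libraries, 414 and 414 in those with EtOH Nec-1, 3051 and 4071 with 4-OHT DMSO and 745 with 4-OHT Nec-1, with an interaction of -1.84. Muc3, a membrane mucin, had 22.8 and 25.4, 19.4 and 26.6, 213 and 292, and 73.2 in the same order, with an interaction of -1.68. Ly6e, a membrane protein of interferon responses, had 11.7 and 14.4, 10.1 and 20.2, 144 and 213, and 23.3, with an interaction of -3.0. In all 3 genes both 4-OHT DMSO libraries stood above the other 5, and none passed the adjusted test (limma adjusted p of 0.101, 0.22 and 0.194).

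Some genes outside the lists differed through the EtOH arm. Tnfaip1, an adaptor of a ubiquitin ligase, had an FPKM of 8.04 and 10.2 in the EtOH DMSO libraries, 35.1 and 36.7 in those with EtOH Nec-1, 38.8 and 37.7 with 4-OHT DMSO and 34.9 with 4-OHT Nec-1, so that the EtOH DMSO libraries alone were low. Msra, which repairs oxidised methionine, had 15.0 and 14.1, 5.62 and 5.69, 5.95 and 6.54, and 8.25, so that they alone were high. Their interactions of -2.01 and 1.58 did not pass the adjusted test (limma adjusted p = 0.0638 for both). Fabp6, the ileal bile acid carrier, had 6.72 and 3.98, 17.4 and 14.9, 21.0 and 11.4, and 7.21, with opposite differences of 1.46 in the EtOH arm and -1.01 in the 4-OHT arm and an interaction of -2.47 (limma adjusted p = 0.255). Other genes switched between near 0 and high values within a group, as mt-Ts2 did with 0.323 and 232 FPKM in the EtOH DMSO libraries.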
